A study of Mus musculus with 20 samples.

Results

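Colony-stimulating factors and their receptors were followed in microglia sorted after spinal cord injury (SCI). The family was taken by gene symbol. It comprised the ligands *Csf1* and *Il34*, their receptor *Csf1r*, the receptor chains *Csf2ra*, *Csf2rb* and *Csf2rb2*, and the receptor *Csf3r*, and all 7 symbols were found among the 16810 genes measured. CX3CR1+/eGFP mice carry the fluorescent reporter eGFP in place of 1 copy of the chemokine receptor gene *Cx3cr1*, so that every group, non-injured controls included, was heterozygous at this locus. The 20 libraries were made from eGFP-high cells of adult males, 12 weeks old at lesion and kept on a C57BL/6 background. Non-injured mice (NI) gave 3 libraries. Full transection (FT) at the thoracic level T9 is represented by 3 libraries at each of 72 h, 1 week and 2 weeks. Lateral hemisection (HS) at the same level has 3, 2 and 3 libraries at these times. Cells came from a 1 cm segment around the lesion, or from an equivalent thoracic segment in NI. The *Cx3cr1* promoter is also active in monocytes, and the sort on eGFP alone could hold monocyte-derived macrophages. The labels do not say how many mice entered a library, so p-values measure the spread between these libraries.

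CSF1 and IL34 are the ligands of CSF1R, a receptor tyrosine kinase on which microglia depend for survival and proliferation. CSF2 (also called GM-CSF) binds the alpha chain CSF2RA, which then pairs with the common beta chain CSF2RB to signal through JAK2 and STAT5. IL3 and IL5 use the same beta chain with alpha chains of their own, and the mouse holds an additional beta chain gene, *Csf2rb2*, that serves IL3 alone. CSF3 (G-CSF) acts through CSF3R, best known from neutrophils and their precursors.

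*Csf1* was higher after injury in every comparison with NI. Its mean level was 39.2 ± 9.35 CPM in NI (SD, n = 3; CPM, counts per M reads of library size, M for mega) and lay between 91.1 and 171 CPM in the 6 injured groups, where all 17 injured libraries exceeded all NI libraries. Such a separation above NI was met by 24%, 20.2% and 14.5% of all genes at 72 h, 1 week and 2 weeks after HS, and by 22.2%, 11.4% and 17.3% in the FT groups. *Csf2rb* and *Csf2rb2* were higher by less than 2-fold in every injured group on the deposited scale. Neither passed a test against NI with all columns scaled to the same total. *Csf3r* was lowest at 72 h after both injuries, *Csf1r* and *Csf2ra* passed no test against NI on the deposited scale, and *Il34* was close to the detection limit. None of the 7 genes passed the test between FT and HS.

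The promoters of *Csf1* and *Csf2rb2* are shown because both genes were higher in all 6 injured groups on the deposited scale. Both also have an entry in the RefSeq promoter table (GRCm38.p6), which holds 4 of the 7 genes. Each run is the 250 bases before the annotated start, in the direction of transcription, and therefore holds no transcribed base. Capitals mark matches to motif letters for PU.1 (GAGGAA), NF-kB (its 10-base consensus), AP-1 (TGANTCA) and STAT factors (TTCNNNGAA), searched on both strands. No 2 matches overlapped.
Csf1, chr3:107760470-107760719, minus strand: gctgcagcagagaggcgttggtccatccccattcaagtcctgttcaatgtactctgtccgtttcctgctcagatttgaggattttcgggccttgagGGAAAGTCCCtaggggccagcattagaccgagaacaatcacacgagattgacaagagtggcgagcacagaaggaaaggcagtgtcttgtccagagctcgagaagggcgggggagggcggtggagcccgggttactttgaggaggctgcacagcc
Csf2rb2, chr15:78305722-78305971, minus strand: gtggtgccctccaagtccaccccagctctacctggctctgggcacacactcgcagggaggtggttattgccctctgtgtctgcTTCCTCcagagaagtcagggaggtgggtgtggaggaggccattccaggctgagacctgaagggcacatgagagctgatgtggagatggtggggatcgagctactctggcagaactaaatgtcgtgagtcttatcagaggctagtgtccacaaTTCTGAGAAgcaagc
The *Csf1* window held 1 match, to the NF-kB consensus, 154 to 145 bases before the start. Among 32851 promoters, 3.9% held that consensus in the same window. The *Csf2rb2* window held 1 match to the PU.1 letters, present in 23.3% of all windows, and 1 to the STAT letters, present in 7.02%. AP-1 letters, present in 6.75% of windows, were in neither. These matches describe the sequence, and binding was not measured.

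Library depth ranged from 3.87 to 34.1 M reads on the genes of the table. The deposited values are counts normalized to CPM of an effective library size, so columns need not share 1 total. NI columns summed to 777426 to 830481 CPM and injured columns to 878070 to 1202186 CPM. Scaling every column to the same total (equal totals) therefore lowered all injured values relative to NI, and moved the all-gene median of the log2 fold changes to between -0.52 (HS 72 h) and -0.17 (HS 1 week), from between -0.11 and 0.02 on the deposited scale. All 10 microglia markers, such as *P2ry12* and *Tmem119*, were detected in every library, with a sum of 13938 to 30747 CPM. Both of these extremes were libraries of FT 1 week. In this group replicate 1 stood apart from replicates 2 and 3. Over genes with a mean of at least 1 CPM, its root mean square difference from each was 0.76 on the log2 scale, against 0.42 between replicates 2 and 3. Where leaving it out moved a member's log2 fold change from NI by over 1.5 times or moved its adjusted p across the threshold, both values are given. Levels come from bulk RNA, where fewer cells of a type and less RNA per cell cannot be told apart.

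*Csf1* encodes the secreted and membrane-bound growth factor CSF1, also known as M-CSF (chr3:107741048-107760469 in GRCm38, minus strand). In NI the 3 libraries had 28.7, 46.7 and 42.1 CPM. At 72 h the values were 67.5, 87.8 and 118 CPM after HS and 125, 90.5 and 118 CPM after FT. Every library at 72 h was thus above the highest NI value. At 1 week HS gave 173 and 145 CPM, whereas FT gave 177, 78.9 and 66.4 CPM. At 2 weeks HS gave 149, 124 and 150.1 CPM and FT gave 147, 175 and 191 CPM. The lowest injured value, 66.4 CPM in FT 1 week replicate 3, still exceeded the highest NI value, and FT 2 weeks held the highest library.

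**Figure D1:**
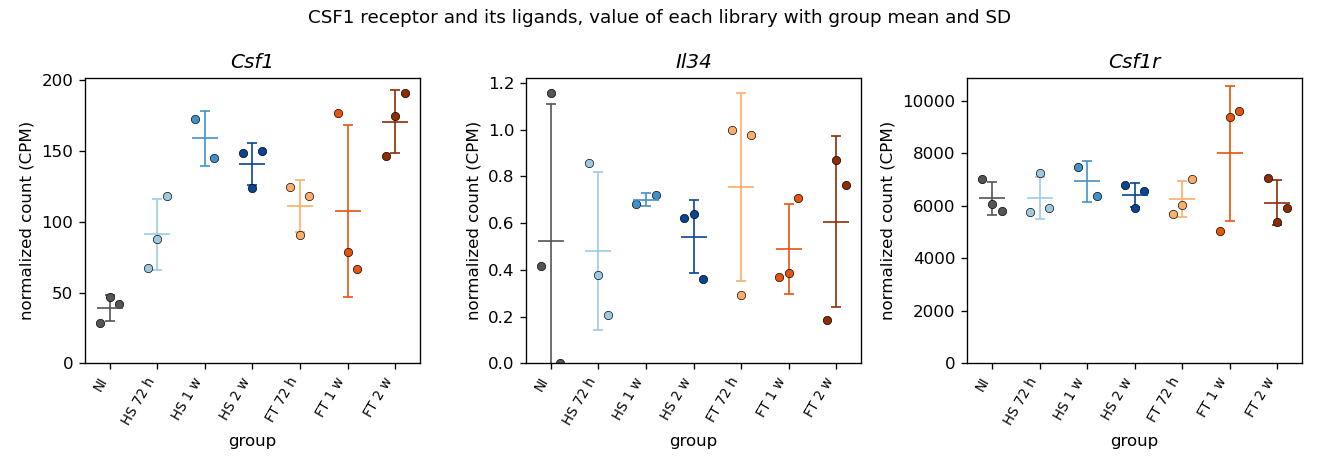
Normalized count (CPM, linear axis from 0) of *Csf1*, *Il34* and *Csf1r* in each library (points), with group mean (bar) and SD (whiskers, cut at 0 for *Il34* in NI); NI, HS and FT as in the text. All injured *Csf1* points lie above the NI points, *Il34* stays at or below 1.16 CPM, and *Csf1r* overlaps NI in every group.

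On the log2 scale, after 0.5 CPM was added to each value, the change of *Csf1* from NI was 1.20 (SE 0.28, adjusted p = 0.00295) at 72 h, 2.03 (SE 0.31, adjusted p = 0.000407) at 1 week and 1.86 (SE 0.28, adjusted p = 0.000163) at 2 weeks after HS. After FT it was 1.51 (SE 0.28, adjusted p = 0.000431), 1.33 (SE 0.28, adjusted p = 0.0039) and 2.13 (SE 0.28, adjusted p = 2.14e-05), all by limma with Benjamini-Hochberg adjustment over all genes. These correspond to 2.30-, 4.09- and 3.62-fold after HS and to 2.85-, 2.52- and 4.38-fold after FT. A gene was called at an adjusted p under 0.05 and a change of at least 2-fold, and *Csf1* was the 1 of 7 members called, in each of the 6 comparisons. Among all genes, 9.08%, 1.7% and 2.43% were called higher at 72 h, 1 week and 2 weeks after HS, and 8.14%, 2.86% and 3.53% were in the FT groups. At least 93.4% of all genes had a smaller log2 fold change than *Csf1* in each comparison.

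In the comparisons with the smallest changes, HS 72 h and FT 1 week, the *Csf1* call depended on the scaling and on single libraries. With equal totals, *Csf1* was still higher in all 6 comparisons and had 0.69 at HS 72 h, without passing the test (limma adjusted p = 0.0797), and 0.99 at FT 1 week, just under 2-fold (limma adjusted p = 0.0466). Relative to the median of all genes, the HS 72 h change was 1.31 on the deposited scale and 1.22 with equal totals. After quantile normalization the HS 72 h change was 0.94. Without FT 1 week replicate 1, at 177 CPM, the FT 1 week change was 0.91, and without NI replicate 1 or HS 72 h replicate 3 the HS 72 h change was 0.993 or 0.995, all with an adjusted p under 0.05 by limma.

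**Figure D2:**
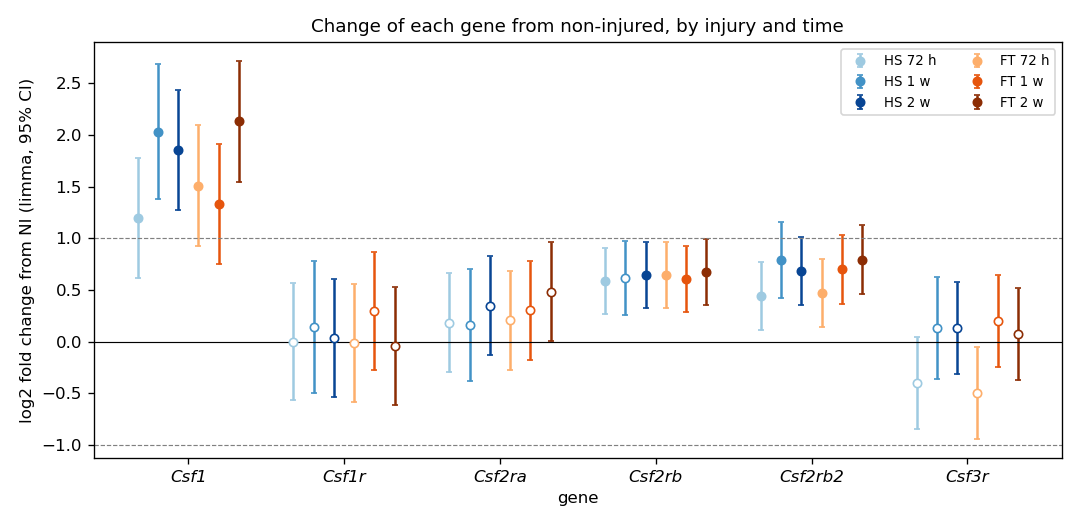
Log2 fold change from NI (limma on log2 of CPM plus 0.5) with its 95% confidence interval for 6 genes; colours give injury and time, filled points an adjusted p under 0.05, dashed lines a 2-fold change. *Csf1* lies above the dashed line in all 6 comparisons, from 1.20 to 2.13; *Csf2rb* and *Csf2rb2* lie between 0.44 and 0.79.

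Ordered by mean level of *Csf1*, the groups ran from NI (39.2 CPM) through HS 72 h (91.1 CPM), FT 1 week (107 CPM), FT 72 h (111 CPM), HS 2 weeks (141 CPM) and HS 1 week (159 CPM) to FT 2 weeks (171 CPM). Only NI and HS 72 h did not overlap among neighbours in this order. Averaged over both injuries, *Csf1* was higher at 1 and 2 weeks than at 72 h by 0.48 on the log2 scale (95% CI 0.12 to 0.85, limma adjusted p = 0.0423), where 13.6% of all genes were higher at the same threshold. This difference lost the threshold in 10 of the 20 fits that left out 1 library, with values from 0.38 to 0.59.

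*Il34* encodes the other ligand of CSF1R, made in the brain mainly by neurons (chr8:110741829-110805924, minus strand). It had between 0 and 26 reads per library. In NI its values were 0.417, 1.16 and 0 CPM, which span the whole range of the injured libraries (0.187 to 0.998 CPM). The 3 reads that set the detection floor were worth 0.179 to 0.386 CPM in the NI libraries with the most and the fewest reads, so that no fold change is given for *Il34*. Its gene is overlapped on the other strand by Gm15894 and Gm15895. Over 8 neuronal markers the summed level ranged from 45.2 to 79.7 CPM in NI, whereas injured libraries had 14.1 to 41.5 CPM.

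*Csf1r* (chr18:61100598-61132149, plus strand) was by far the most abundant member per length. Its mean in NI was 1088 ± 110 CPM per kilobase of exon (SD, n = 3), against 202 ± 18.0 for *Csf3r*, 19.6 ± 0.198 for *Csf2rb*, 13.5 ± 2.84 for *Csf2ra*, 10.4 ± 1.43 for *Csf2rb2*, 7.42 ± 1.77 for *Csf1* and 0.268 ± 0.299 for *Il34*. At FT 2 weeks *Csf1* reached 32.3 ± 4.23 CPM per kilobase, next to 31.6 ± 4.55 for *Csf2rb*. *Csf1r* values were 7005, 6050 and 5796 CPM in NI and 5029 to 9597 CPM after injury, and every injured group overlapped NI.

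The log2 fold change of *Csf1r* from NI ran from -0.04 at FT 2 weeks to 0.29 at FT 1 week. Its widest 95% interval, from -0.50 to 0.78, was at HS 1 week, the group of 2 libraries. At FT 1 week the interval reached from -0.28 to 0.86, and limma gave an adjusted p of 0.659. Without FT 1 week replicate 1 the FT 1 week change was 0.60 (limma adjusted p = 0.0855). FT 1 week replicate 1 had 5029 CPM, the lowest value of all libraries, and replicates 2 and 3 had 9366 and 9597 CPM, the highest. The same replicate 1 also had the lowest sum of microglia markers (13938 CPM) and the highest *Csf2ra*, and its part in these values was not tested. The direction of *Csf1r* depended on the scaling. It was negative in all 6 comparisons after quantile normalization (-0.41 to -0.73, limma adjusted p = 0.0212 at HS 72 h, 0.0169 at FT 72 h and 0.0255 at FT 2 weeks) and with equal totals (-0.05 to -0.51, none under 0.05). Reads of *Csf1r* and of *Hmgxb3*, which overlaps it on the other strand, cannot be told apart unless strand was used in counting.

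As a ratio within each library, *Csf1* made up 0.636 ± 0.197% of the *Csf1r* value in NI (SD, n = 3). At 72 h the ratio was 1.46 ± 0.458% after HS and 1.79 ± 0.362% after FT, and at 2 weeks 2.19 ± 0.0968% and 2.85 ± 0.67% (SD, n = 3 each). At 1 week HS had 2.28 and 2.31%, whereas FT ranged from 0.692 to 3.52%. Multiplying a column by any 1 factor leaves this ratio as it is, which is not so for quantile normalization. Its NI range (0.41 to 0.772%) overlapped only that of FT 1 week.

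*Csf2ra*, the ligand-specific alpha chain of the GM-CSF receptor (chr19:61223957-61228429, minus strand), had 29.6, 42.2 and 44.8 CPM in NI. Injured libraries had 36.7 to 70.9 CPM, with the highest value again in FT 1 week replicate 1. The log2 fold changes were 0.16 to 0.49 and none passed the test (lowest limma adjusted p = 0.257, at FT 2 weeks). Without FT 1 week replicate 1 the FT 1 week change of *Csf2ra* was 0.01 in place of 0.30. FT 2 weeks, with 47.3, 54.8 and 59.9 CPM, was the 1 group whose libraries all exceeded NI, where 17.3% of all genes did the same.

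*Csf2rb*, the common beta chain (chr15:78325752-78353847, plus strand), was almost constant in NI, at 143.0, 141 and 144 CPM. At 72 h it had 206, 212 and 224 CPM after HS and 237, 195 and 242 CPM after FT. At 2 weeks it had 235, 209 and 225 CPM after HS and 266, 202 and 221 CPM after FT. All injured libraries, those of 1 week included (200.2 to 242 CPM), lay above NI, and the injured groups overlapped each other.

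The log2 fold change of *Csf2rb* from NI was 0.58 to 0.68, or 1.50- to 1.60-fold. It passed an adjusted p of 0.05 in 5 of 6 comparisons and missed it at HS 1 week, the group of 2 libraries (0.62, limma adjusted p = 0.0587, and 0.0233 without FT 1 week replicate 1). The share of all genes higher at that threshold, without the fold limit, was 16.4%, 2.07% and 3.84% at 72 h, 1 week and 2 weeks after HS, and 14.8%, 5.11% and 6.21% in the FT groups. *Csf1*, *Csf2rb* and *Csf2rb2* were the 3 members whose libraries lay entirely above NI in each comparison. In single comparisons, 11.4% (FT 1 week) to 24% (HS 72 h) of all genes did the same, and the share doing so in every comparison was not computed.

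*Csf2rb2*, the IL3-specific beta chain, lies next to *Csf2rb* in the opposite orientation (chr15:78282507-78305721, minus strand). It had 57.2, 46.3 and 44.7 CPM in NI. At 72 h the values were 67.2, 69.2 and 64.4 CPM after HS and 73.8, 64.0 and 67.1 CPM after FT. At 1 and 2 weeks injured libraries had 71.4 to 100.1 CPM, so that all of them exceeded NI. The log2 fold change was 0.44, 0.79 and 0.68 after HS and 0.47, 0.70 and 0.79 after FT at the 3 times in order, with limma adjusted p-values from 0.00206 (FT 2 weeks) to 0.0435 (HS 72 h). None of the 6 reached 2-fold. Averaged over both injuries, *Csf2rb2* was higher at 1 and 2 weeks than at 72 h by 0.29 (95% CI 0.08 to 0.49, limma adjusted p = 0.0352), and lost the threshold in 8 of the 20 fits that left out 1 library, with values from 0.25 to 0.32 over all 20. Over the same contrast *Csf2rb* differed by 0.02 (95% CI -0.18 to 0.22), and the difference between the beta chains was not tested.

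The tests of both beta chains depended on the scaling. With equal totals neither passed in any comparison: *Csf2rb* had 0.08 to 0.41 and *Csf2rb2* -0.06 (HS 72 h) to 0.58. After quantile normalization *Csf2rb* passed in 0 and *Csf2rb2* in 4 of 6 comparisons. With any 1 of the NI libraries left out, *Csf2rb* lost 2 of the 5 comparisons it had passed and kept 3. It lost 1 and kept 4 without HS 2 weeks replicate 1 or 3, FT 1 week replicate 2 or FT 2 weeks replicate 1. The limma adjusted p of the lost comparisons reached 0.0793. HS 1 week, which had not passed with all libraries, also missed the threshold in these fits. *Csf2rb2* missed it in 5 comparisons without NI replicate 2 or 3, and in 1 or 2 comparisons without any 1 of the HS 72 h libraries, FT 72 h replicate 1 or 3, HS 1 week replicate 1 or 2, HS 2 weeks replicate 1 or FT 2 weeks replicate 3 (limma adjusted p up to 0.249). Relative to the median of all genes with equal totals, *Csf2rb* was higher by 0.57 to 0.66 and *Csf2rb2* by 0.46 to 0.76.

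**Figure D3:**
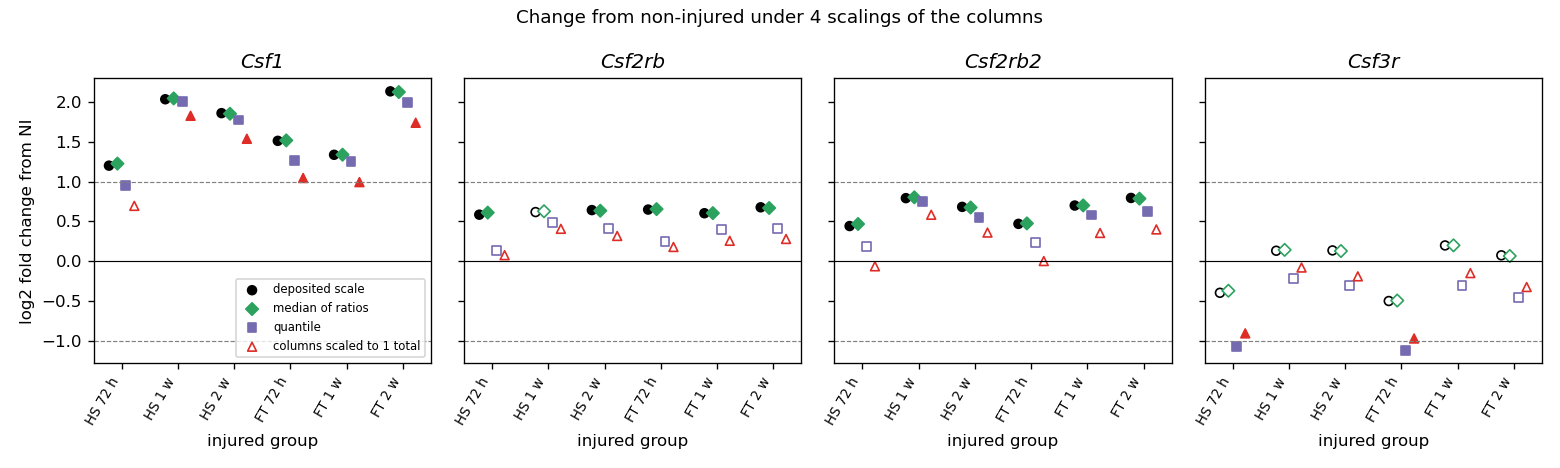
Log2 fold change from NI for 4 genes under 4 scalings of the columns: as deposited (circles), median of ratios (diamonds), quantile (squares) and equal totals (triangles). Filled symbols have an adjusted p under 0.05 and dashed lines mark 2-fold. *Csf1* stays above 0 throughout, *Csf2rb* and *Csf2rb2* move toward 0 with equal totals, and *Csf3r* at 72 h moves from -0.40 and -0.50 to about -1.

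The beta chain genes are near-identical in part of their sequence. In the annotated transcripts, 12.3% of the 50-base windows of *Csf2rb* and 18.4% of those of *Csf2rb2* also occur in the other gene, so that reads from these stretches could have been left uncounted or given to either. Across the 20 libraries the genes moved together, with a Pearson correlation of 0.85 between their log2 values. This is a description over libraries that share group and depth. The ratio of *Csf2rb* to *Csf2rb2* was 2.92 ± 0.373 in NI (SD, n = 3), 3.20 ± 0.245 and 3.29 ± 0.283 at 72 h after HS and FT, and 2.82 ± 0.281 and 2.67 ± 0.0732 at 2 weeks.

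**Figure D4:**
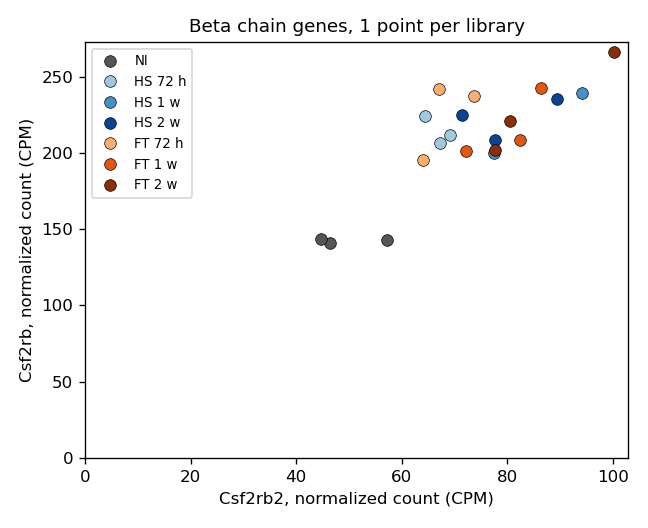
*Csf2rb* against *Csf2rb2*, both as normalized count (CPM, linear axes from 0), 1 point per library and 1 colour per group. NI libraries sit at 141 to 144 CPM of *Csf2rb* and 44.7 to 57.2 CPM of *Csf2rb2*, below and to the left of all injured libraries.

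*Csf3r*, the G-CSF receptor (chr4:126024550-126044440, plus strand), had 653, 771 and 760.5 CPM in NI. At 72 h it had 438, 633 and 607 CPM after HS and 448, 505 and 599 CPM after FT. All 6 libraries at 72 h were below the lowest NI library. At 1 week HS gave 857 and 739 CPM and FT gave 574, 1044 and 967 CPM. At 2 weeks HS gave 829, 733 and 836 CPM and FT gave 821, 711 and 766 CPM, so that the later groups overlapped NI. The FT 1 week change from NI was 0.20, and 0.47 without replicate 1 (limma adjusted p = 0.714 and 0.0905).

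The log2 fold change of *Csf3r* at 72 h was -0.40 after HS (SE 0.21, limma adjusted p = 0.174) and -0.50 after FT (SE 0.21, limma adjusted p = 0.095), neither past the threshold. Without FT 1 week replicate 1 the FT 72 h value was unchanged and passed (limma adjusted p = 0.0248). At 72 h, 24.9% (HS) and 22.7% (FT) of all genes had all libraries below NI. Averaged over both injuries, *Csf3r* was higher at 1 and 2 weeks than at 72 h by 0.58 (95% CI 0.30 to 0.86, limma adjusted p = 0.00271). That difference kept its direction and an adjusted p under 0.05 under each alternative run, and was 0.50 to 0.65 when any 1 library was left out. With equal totals the change at 72 h was -0.90 (HS, limma adjusted p = 0.000753) and -0.97 (FT, limma adjusted p = 0.000475), and after quantile normalization -1.07 and -1.12. Relative to the median of all genes, the equal-total values were -0.38 and -0.49.

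**Figure D5:**
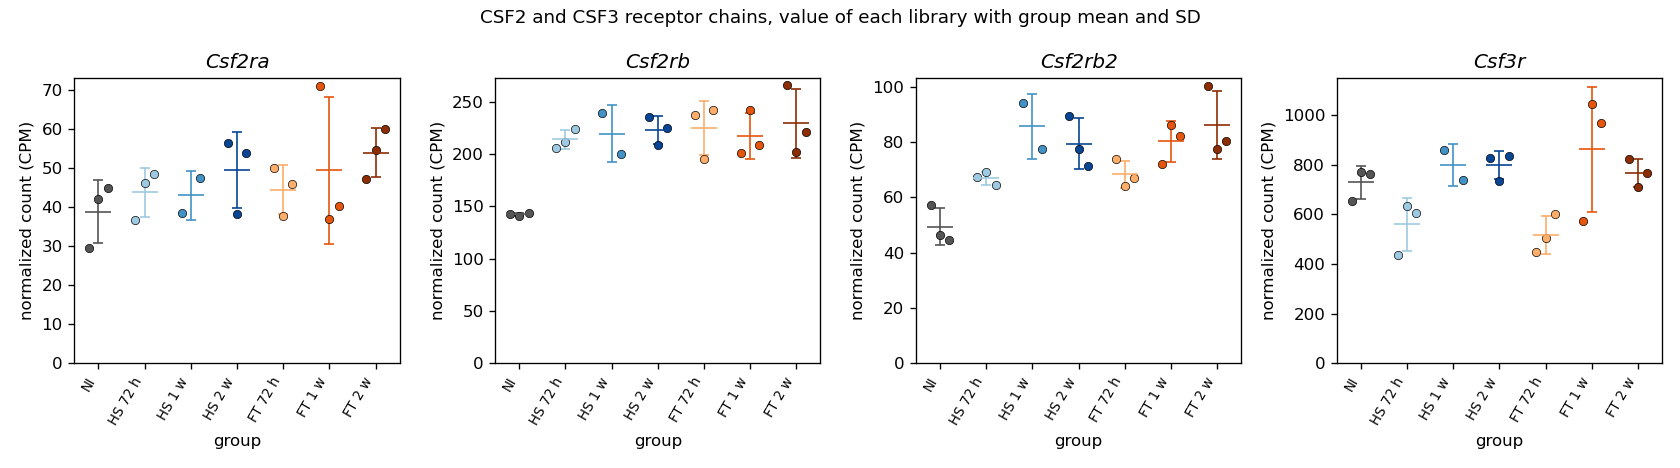
Normalized count (CPM, linear axes from 0) of *Csf2ra*, *Csf2rb*, *Csf2rb2* and *Csf3r* in each library (points), with group mean (bar) and SD (whiskers). Both beta chains are higher in every injured library than in NI, and *Csf3r* at 72 h lies below NI after HS and FT.

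Markers of other cells moved with time as well. The summed level of 8 monocyte markers was 25.4 to 34.5 CPM in NI, 59.7 to 132 CPM at 72 h after HS and 94.0 to 275 CPM at 72 h after FT, and 3 and 6 of the 8 were called higher. It was also above all NI libraries at HS 1 week (49.0 to 75.02 CPM), HS 2 weeks (40.5 to 65.8 CPM) and FT 2 weeks (46.6 to 49.3 CPM), but not at FT 1 week (29.4 to 55.9 CPM), with 1 marker called higher in each of these groups. The sum of 11 neutrophil markers measured was 51.5 to 127 CPM in NI and 27.7 to 30.4 CPM at HS 72 h and 27.5 to 73.5 CPM at FT 72 h, and at 1 and 2 weeks every group overlapped NI. Of 8 cell cycle markers, all 8 were called higher at 72 h after both injuries, where their sum was 671 to 1127 CPM against 105 to 117 CPM in NI, and at 1 and 2 weeks their sum was 121 to 226 CPM. The sum of 7 markers of border-associated macrophages was 177 to 180.3 CPM in NI and 152 to 226 CPM at 72 h, where 1 was called higher after HS, and 2 higher and 2 lower after FT. Their sum was lower than in NI at HS 1 week (117 to 118 CPM), HS 2 weeks (75.04 to 81.4 CPM) and FT 2 weeks (89.5 to 95.5 CPM), and 173 to 218 CPM at FT 1 week. At 1 week 2 of these markers were called higher and 3 lower after each injury. At 2 weeks 1 was called higher and 5 lower after HS, and 2 higher and 5 lower after FT. None of 8 dendritic cell, 10 lymphocyte and NK cell or 7 oligodendrocyte markers was called in any comparison with NI. No endothelial marker of 5 was called at 72 h. In each later group 1 was called lower, and at 2 weeks 1 was called higher after both injuries. From 8 neuronal markers, 3 were called lower at both 72 h groups, 4 at FT 1 week and 3 at FT 2 weeks. At 72 h 1 neutrophil marker was called lower after both injuries. Of 10 microglia markers, 1 was called higher and 1 lower in each 72 h group. At FT 1 week 1 was called higher, and at FT 2 weeks 1 lower. Their median log2 fold change, -0.44 to -0.21, was below that of all genes in each comparison. Of 7 astrocyte markers, 1 was called higher and 2 lower at HS 72 h, and 2 and 1 at FT 72 h. At 1 week 0 and 2 were after HS and 1 and 3 after FT, and at 2 weeks 0 and 4 after both. Among all genes at 72 h, 9.08% (HS) and 8.14% (FT) were called higher, and 4.31% and 4.09% lower. At 1 week 367 (HS) and 681 (FT) of 16810 genes were called, 77.9% and 70.5% of them higher. At 2 weeks 543 (HS) and 821 (FT) were called, 75.3% and 72.2% of them higher. No marker of these lists was at 0 in every library of a group. The part of these cells and of proliferation in the levels of *Csf1*, the beta chains and *Csf3r* was not tested at any time.

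FT and HS were compared directly at each time and on average, to ask whether the severity of the lesion altered the family. None of 28 tests passed the adjusted threshold, and 1 had an unadjusted p under 0.05 by limma: *Csf1* was lower at 1 week after FT than after HS by 0.70 on the log2 scale (95% CI -1.35 to -0.05, adjusted p = 0.999). Without FT 1 week replicate 1 this difference was -1.12, still not past the threshold (limma adjusted p = 0.152). At that comparison 4.31% of all genes had an unadjusted p under 0.05, and 0% were called there, at 72 h, at 2 weeks or on average. For the average over times the interval was -0.39 to 0.31 for *Csf1*, -0.32 to 0.36 for *Csf1r*, -0.19 to 0.39 for *Csf2ra*, -0.16 to 0.22 for *Csf2rb*, -0.18 to 0.21 for *Csf2rb2* and -0.30 to 0.23 for *Csf3r*, which leaves 2-fold differences outside each.

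Genes that act with these receptors were taken from lists, of which 56 of 60 genes were measured. Over the 6 comparisons with NI these gave 14 calls higher and 6 lower, and 5 higher and 25 lower with equal totals. The calls of all genes turned in the same way. Of 16810 genes, 367 to 2250 were called per comparison, 66.6 to 77.9% of them higher. With equal totals 407 to 3820 were called, 16.2 to 53.3% of them higher. Of 28 genes of CSF1R signaling, 2 were called higher and 1 lower at HS 72 h, 1 and 1 at FT 72 h, and 1 higher and 0 lower at FT 1 week and FT 2 weeks, with none at HS 1 week or HS 2 weeks. Of all genes, 9.08% (HS 72 h), 8.14% (FT 72 h), 2.86% (FT 1 week) and 3.53% (FT 2 weeks) were called higher in these comparisons. The median log2 fold change of the list was -0.11 to 0.04, near that of all genes. *Src*, a tyrosine kinase recruited to the receptor, had 14.8, 17.2 and 17.2 CPM in NI, 4.39, 6.97 and 6.15 CPM at HS 72 h and 7.61, 4.38 and 6.14 CPM at FT 72 h. *Src* thus fell by 1.44 on the log2 scale after HS (limma adjusted p = 6.83e-05) and by 1.40 after FT (limma adjusted p = 0.000102), and was called under all 4 scalings. Of all genes, 4.31% (HS) and 4.09% (FT) were called lower at 72 h. *Dok2*, an adaptor that restrains kinase signaling, rose at HS 72 h by 1.25 (limma adjusted p = 0.0269), from 9.89, 11.97 and 10.8 to 29.3, 24.3 and 26.0 CPM, and was not called after quantile normalization, with equal totals or without any 1 of the NI and HS 72 h libraries (limma adjusted p up to 0.0846). *Tyrobp*, which encodes the adaptor DAP12 and was chosen after its values were seen, was called higher in 4 of 6 comparisons (1.07 to 1.16) and in 0 after quantile normalization or with equal totals.

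Of 22 genes of beta chain and CSF3 receptor signaling, 1 was called lower, at HS 72 h, and those called higher included *Il3ra* at FT 2 weeks. Of all genes, 4.31% were called lower at HS 72 h and 3.53% higher at FT 2 weeks. The median log2 fold change of the list was -0.17 to 0.15, against -0.11 to 0.02 for all genes. *Il3ra*, the alpha chain of the IL3 receptor, had 1.79, 1.03 and 0.671 CPM in NI and 6.46, 4.88 and 4.35 CPM at FT 2 weeks, where it was called higher (1.82, limma adjusted p = 0.0137), though not without NI replicate 2 or 3 or FT 2 weeks replicate 1 (limma adjusted p up to 0.0796). *Socs1*, a feedback inhibitor of JAK kinases, had 1.13, 1.16 and 1.25 CPM in NI and 0.132, 0.188 and 0.41 CPM at HS 72 h. HS 72 h replicates 2 and 3 thus lay below the detection floor of 3 reads, worth 0.283 and 0.615 CPM there. *Socs1* was called lower at HS 72 h (limma adjusted p = 0.015). It was not called when 1 CPM was added in place of 0.5, after quantile normalization (-0.95) or without HS 72 h replicate 1 (limma adjusted p = 0.0639).

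Of 2 further proteins that bind IL34, *Ptprz1*, a receptor phosphatase of neural and glial precursor cells, was called lower in 3 of 6 comparisons. It fell most at FT 2 weeks, from 9.12, 6.05 and 4.99 CPM in NI to 1.87, 2.44 and 2.29 CPM (-1.38, limma adjusted p = 0.00625). The calls at HS 2 weeks (-1.08) and FT 1 week (-1.06) were close to the threshold (limma adjusted p = 0.0498 and 0.0452). Of 16810 genes, 543 (HS 2 weeks), 681 (FT 1 week) and 821 (FT 2 weeks) were called, 75.3%, 70.5% and 72.2% of them higher. *Ptprz1* was called in 1 to 4 comparisons under the other settings and in 0 to 3 when 1 library was left out, with 0 without NI replicate 1. The sum of 7 astrocyte markers, 383 to 651 CPM in NI, was 162 to 302 CPM at HS 2 weeks, 292 to 444 CPM at FT 1 week and 185 to 244 CPM at FT 2 weeks, where *Ptprz1* was called. It was 290 to 565 CPM at HS 72 h, 282 to 301 CPM at HS 1 week and 466 to 681 CPM at FT 72 h, where *Ptprz1* was not called, and its part in the *Ptprz1* values was not tested. Neither of the 2 enzymes that cleave CSF1 from the cell surface, *Adam17* and *Adam10*, was called. Of the other ligands listed, *Kitl* and *Flt3l* were measured and were not called, and *Csf2*, *Csf3*, *Il3* and *Il5* were not analysed here.

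Genes whose profile was most like that of a member were ranked by Pearson correlation of log2 values over the 20 libraries, among 12537 genes. For *Csf1* these were *Fam20c*, *Olr1* and *Lonrf3* (0.88, 0.87 and 0.87), for *Csf2rb* *Dgkz*, *B430306N03Rik* and *Gaa* (0.95, 0.94 and 0.93), and for *Csf2rb2* *Cd22*, *Etl4* and *Acaca* (0.94, 0.93 and 0.93). *Csf1r* was most like *Slc25a45*, *Tgfa* and *Acp2* (0.87, 0.86 and 0.85), *Csf2ra* like *Nfic*, *Cmip* and *Trcg1* (0.85, 0.82 and 0.81) and *Csf3r* like *Zcchc2*, *Cybasc3* and *Dnaaf3* (0.90, 0.90 and 0.89). For *Il34*, at its few reads, the highest was *Brdt* (0.68). Between members, *Csf1* had 0.75 with *Csf2rb* and -0.23 with *Csf1r*, and *Csf3r* had 0.63 with *Csf1r*.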

How the data were processed

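RNA of sorted eGFP-high cells was sequenced after SMARTer Ultra Low amplification and Nextera library preparation, and any sequencing batch or strand setting is not given in the sources used here. The submitters' notes name TopHat2 2.0.9, HTSeq 0.5.4p3, edgeR 3.3.6 and GRCm38 (mm10). The authors deposited a signal per gene and library, the read count normalized by library size, for genes that reached 10 reads in 2 or more replicates. Every one of the 336200 deposited values was a whole multiple of 1 step per column, within 0.001 step, so that CPM and whole reads (3.87 to 34.1 M per library, M for mega) were recovered. Intervals that rest on reads cover counting error only.

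Values were analysed as log2 of CPM plus 0.5 with limma 3.58.1 (R 4.3.3). The fit had 1 mean per group and an intensity trend, and the 20 libraries shared 1 estimate of the spread. Comparisons were of injured groups with NI, of FT with HS and of times with each other, at an adjusted p under 0.05 (Benjamini-Hochberg over 16810 genes) and 2-fold. A limma fit on signal was used as planned, and edgeR 4.0.16 and DESeq2 1.42.0 were run on recovered reads as alternatives. The scripts were tested on simulated data. The members, gene lists and tests were chosen with earlier results of these data known. All 7 members are named, and from each pathway list the called gene with the largest rise and fall, and per member the 3 genes most like it. Positions, exon lengths and transcripts are from GENCODE vM21. RefSeq gives *Sfpi1* and *Chi3l3*, the names used in the deposited values, as synonyms of *Spi1* and *Chil3*. The methods state 3 replicates per time point, and HS at 1 week has 2 libraries here. The result for 1 gene of the pathway lists is not reported here.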

Additional observations from a re-analysis of the deposited data

Results flagged for a closer look

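Averaged over HS and FT, 3 of the 7 genes differed between 1 and 2 weeks and 72 h by limma at an adjusted p under 0.05: *Csf3r* by 0.58, *Csf1* by 0.48 and *Csf2rb2* by 0.29 on the log2 scale, all higher later, where 13.6% of all genes were higher at the same threshold. All 3 were under 2-fold. With 1 library left out, *Csf1* lost the threshold in 10 and *Csf2rb2* in 8 of 20 fits. Within an injury, *Csf3r* and *Csf2rb2* were higher in all 4 comparisons of 1 or 2 weeks with 72 h, and *Csf1* in 3 of 4. The averaged difference is the mean of these 4, so their directions are not separate evidence. None passed for these genes (lowest limma adjusted p = 0.0609, *Csf3r* at FT 1 week against FT 72 h). The all-gene median was also positive in each, from 0.03 to 0.07. At 72 h *Csf3r* was below NI in 6 of 6 libraries.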

How the results depend on the processing

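Over 31 alternatives, *Csf1* was higher than NI in all comparisons. The count of calls against NI was 6 of 42, 17 without the fold limit and 5 to 6 when 1 library was left out; with a fit of only the groups compared it lost FT 1 week (adjusted p = 0.055). Between injuries 0 calls were made under every alternative. Between times there were 0 calls, 3 without the fold limit, 1 with equal totals (*Csf1*, HS 1 week above HS 72 h by 1.13) and 1 without FT 1 week replicate 1 (*Csf1*, FT 2 weeks above FT 1 week by 1.22), and 0 to 1 over the libraries left out. Pathway genes gave 20 calls, 30 with equal totals and 14 to 23 with 1 library left out. For all genes at 72 h, 67.8% (HS) and 66.6% (FT) of calls were higher, 16.2% and 18.5% with equal totals; the edgeR quasi-likelihood test called 2843 genes at HS 72 h against 2250, and equal totals 3820. At FT 72 h equal totals called 3364 against 2057, and at HS 1 week a fit of only the groups compared called 652 against 367.

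With equal totals the sign turned for *Csf1r* at HS 72 h (-0.51), HS 1 week (-0.070), HS 2 weeks (-0.29) and FT 1 week (-0.054), for *Csf2ra* at HS 72 h (-0.32), HS 1 week (-0.048), FT 72 h (-0.26) and FT 1 week (-0.039), for *Csf2rb2* at HS 72 h (-0.063), and for *Csf3r* at HS 1 week (-0.079), HS 2 weeks (-0.19), FT 1 week (-0.15) and FT 2 weeks (-0.32). After quantile normalization it turned for *Csf1r* at HS 72 h (-0.65), HS 1 week (-0.41), HS 2 weeks (-0.54) and FT 1 week (-0.45), for *Csf2ra* at HS 72 h (-0.041), and for *Csf3r* at HS 1 week (-0.21), HS 2 weeks (-0.30), FT 1 week (-0.30) and FT 2 weeks (-0.45). With 1 library left out, *Csf1r* ranged from -0.10 to 0.082 at HS 72 h, from -0.023 to 0.11 at HS 2 weeks, from -0.097 to 0.072 at FT 72 h and from -0.15 to 0.043 at FT 2 weeks, *Csf2ra* from -0.023 to 0.31 at HS 1 week, and *Csf3r* from -0.0015 to 0.13 at FT 2 weeks. The cause of these changes of sign was not tested. With the replicate number as a block, calls against NI were 6, between injuries 0 and between times 0; same-numbered libraries had a median correlation of 0.0017 over 57 pairs and 8 of 20 correlated best with their own number, so the numbers were not taken to pair them. *Il34* is limited by depth, with at most 26 reads.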
